A study of Mus musculus with 2 samples.

Results

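Cadherins and non-clustered protocadherins were followed across the cell classes and neuron types of the mouse anterior hypothalamus at 2 ages. The members are all features whose symbol is Cdh or Pcdh followed by a number (with or without a final x), which gave 35 genes of 32289 features: 23 cadherins and 12 protocadherins. The clustered protocadherins, whose symbols carry a letter and a number, are not among them. Nuclei came from male mice aged 22 months (aged) and 3 months (young), with anterior hypothalamus and preoptic area of 5 mice pooled into 1 library per age. The labels call the young mice wild-type and do not state the genotype of the aged mice or the strain of either group, and they name no allele or agent. There is 1 library per age, so no test was made between the ages, all intervals are 95% and cover counting error only, and age, pool of mice and library cannot be told apart.

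Cadherins are calcium-dependent adhesion proteins that bind their like on a neighbouring cell. Type I and type II classical cadherins hold the actin cytoskeleton through catenins, and neurons use combinations of them to sort into nuclei and to choose synaptic partners. Protocadherins of the delta group adhere weakly, and several of them engage the WAVE complex that drives actin branching. Cdh13 lacks a cytoplasmic tail and is held to the membrane by a lipid anchor, whereas Cdh23 and Pcdh15 together form the tip link of inner ear hair cells.

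The upstream sequence is given for 4 type II members. Cdh8 is shown because its level differed by age in oligodendrocytes, Cdh10 because its levels over neuron types resembled those of Cdh8, and Cdh12 and Cdh18 because their levels over neuron types resembled each other. Each window holds the 250 bases before 1 RefSeq start of the gene on GRCm38.p6, 5′ to 3′ on the gene's strand. Where a gene had more than 1 window only the first was used, and its start need not be the outermost one. Capitals mark letters that match one of 6 motifs searched.
Cdh8 (chr8:99416472-99416721, minus strand): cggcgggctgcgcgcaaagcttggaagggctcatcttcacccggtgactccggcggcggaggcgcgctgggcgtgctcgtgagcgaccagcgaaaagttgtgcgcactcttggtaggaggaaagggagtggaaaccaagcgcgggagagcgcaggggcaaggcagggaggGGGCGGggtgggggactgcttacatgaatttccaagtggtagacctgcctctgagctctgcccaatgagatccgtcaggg
Cdh10 (chr15:18820079-18820328, plus strand): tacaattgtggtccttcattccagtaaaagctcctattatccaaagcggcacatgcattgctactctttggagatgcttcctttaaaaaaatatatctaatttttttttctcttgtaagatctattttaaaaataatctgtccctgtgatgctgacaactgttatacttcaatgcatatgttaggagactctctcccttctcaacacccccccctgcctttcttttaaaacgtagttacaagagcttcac
Cdh12 (chr15:21111202-21111451, plus strand): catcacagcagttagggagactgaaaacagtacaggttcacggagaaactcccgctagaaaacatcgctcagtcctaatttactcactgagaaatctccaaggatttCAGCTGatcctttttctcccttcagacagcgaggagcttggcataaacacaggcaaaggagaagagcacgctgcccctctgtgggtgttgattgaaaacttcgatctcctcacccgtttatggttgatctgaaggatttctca
Cdh18 (chr15:23036213-23036462, plus strand): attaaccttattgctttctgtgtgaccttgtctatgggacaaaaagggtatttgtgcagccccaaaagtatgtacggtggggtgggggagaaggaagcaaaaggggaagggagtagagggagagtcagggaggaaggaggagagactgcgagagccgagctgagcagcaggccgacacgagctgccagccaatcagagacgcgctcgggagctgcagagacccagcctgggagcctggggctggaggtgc
The motifs were the GC box GGGCGG, the E-boxes CACGTG and CAGCTG, the cAMP response element TGACGTCA, the TATA box TATAAA and the SOX or TCF type ACAAAG, on both strands. Cdh8 held 1 GC box and Cdh12 held 1 CAGCTG, the windows of Cdh10 and Cdh18 held none of the 6, and no 2 matches overlapped. RefSeq windows were at hand for 22 of the 35 members, of which 9 held a GC box against 32.9% of 27025 windows of all genes, and 2 held CAGCTG against 12.8%. Of the same 22, 4 held ACAAAG (16.5% of all windows), 2 held TATAAA (13%), 1 held CACGTG (6.0%) and 0 held TGACGTCA (1.6%). Base composition differed among the 4 windows, with 64.4% G and C in Cdh8, 58.0% in Cdh18, 46.8% in Cdh12 and 36.8% in Cdh10, against a median of 52.0% over all windows.

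Barcodes with 500 or more genes and at most 5% mitochondrial molecules numbered 8597 at 22 months and 10437 at 3 months, and 25 barcodes were listed in both. Marked doublets (368 aged and 489 young) were left out, and 8229 aged and 9948 young nuclei were clustered with the members withheld from the genes that made the clusters. The classes compared were neurons (4999 aged, 6424 young), precursors of oligodendrocytes (183, 250), mature oligodendrocytes (1881, 2139), astrocytes (156, 389) and microglia (412, 477), with median depths from 1806 to 8353 molecules (UMIs). A cluster led by Oxt, Avp and ribosomal genes, with a median depth of 683 UMIs at 22 months and 708 at 3 months, stayed unnamed and was left out of all classes. It held 519 aged nuclei (6.31%) and 90 young nuclei (0.905%). Neuron types with the defining genes of the labelled tissue were present (Trh and Sim1, Vip and Rorb, Gal and Esr1), beside types with striatal (Adora2a, Drd2) and thalamic (Tcf7l2, Lef1) genes.

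Members took 0.888% of all UMIs in the aged library and 0.879% in the young. Their share was 1.51% aged and 1.67% young in oligodendrocytes, 1.67% and 1.63% in precursors, 0.846% and 0.824% in neurons, 0.829% and 0.767% in astrocytes, and 0.0956% and 0.108% in microglia. Members as a whole were thus a larger part of the RNA in the oligodendrocyte lineage than in neurons or astrocytes at both ages. They were a small part in microglia. Levels of single members are given as UMIs per 1000000 UMIs of the class (CPM). Most of the share in mature oligodendrocytes was Pcdh9, at 11289.5 CPM aged and 12983.0 young, against 2634.1 and 2484.8 in neurons. Without Pcdh9, members were a smaller part in mature oligodendrocytes than in neurons or astrocytes at both ages. In precursors they were still a larger part.

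**Figure D1:**
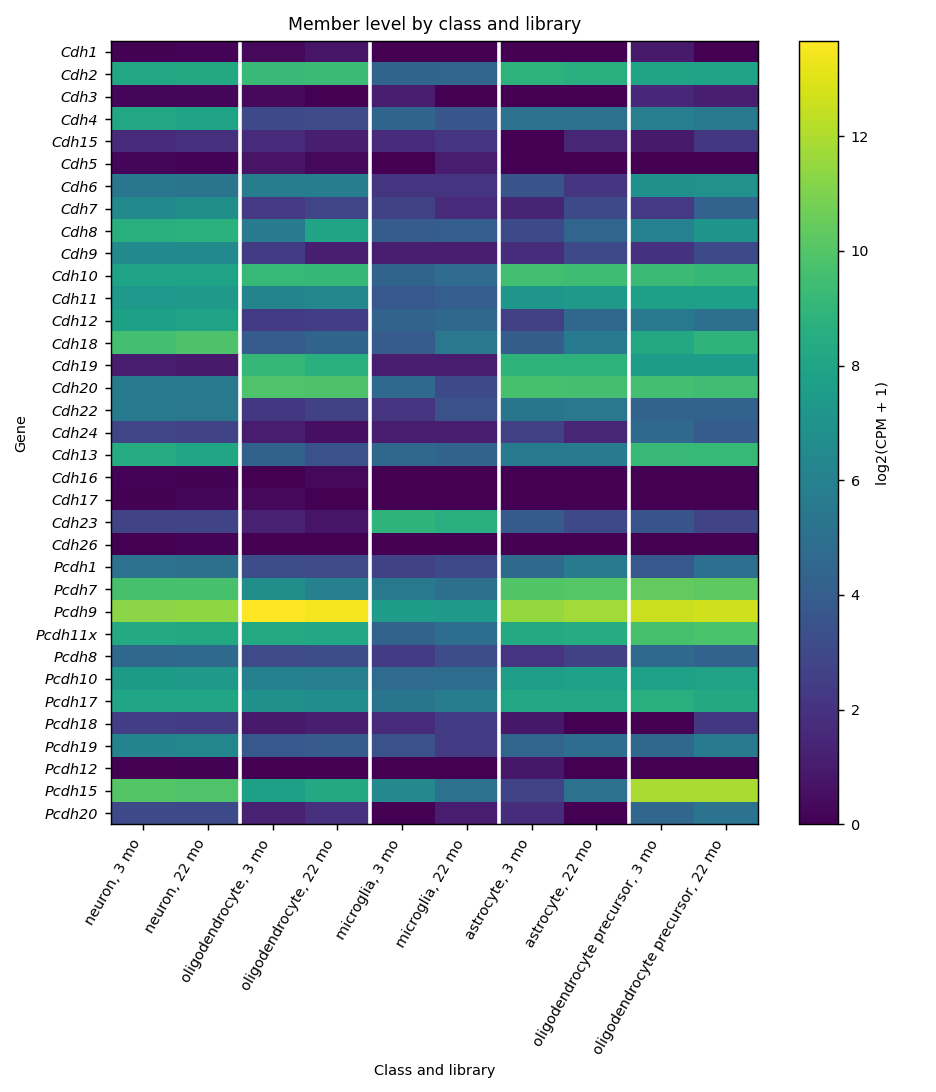
Level of each of the 35 members as log2(CPM + 1), by class (columns, in pairs of 3- and 22-month libraries) and gene (rows). Pcdh9 is the brightest row in oligodendrocytes, Pcdh15 stands out in precursors, Cdh23 in microglia, and Cdh8 differs between the 2 oligodendrocyte columns.

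Among type I cadherins, Cdh2 (N-cadherin, the broad neural cadherin) was measured in neurons at 298 CPM aged and 291 young, in oligodendrocytes at 637 and 597 CPM, in astrocytes at 385 and 457, and in precursors at 245 and 252. Cdh4 (R-cadherin) was concentrated in neurons, at 240 CPM aged and 288 young, against 7.58 and 6.99 CPM in oligodendrocytes. Cdh15 (M-cadherin, known from muscle) was low everywhere, at 2.56 CPM aged and 2.21 young in neurons. Cdh1 and Cdh3, the epithelial and placental cadherins, gave 12 and 7 UMIs in the whole aged and 21 and 15 in the whole young library.

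Type II cadherins divided by class. In neurons Cdh18 was measured at 930 CPM aged and 760 young, Cdh8 at 417 and 373, Cdh10 at 244 and 239, Cdh12 at 244 and 213, Cdh11 at 162 and 153, Cdh7 at 107 and 89.0, and Cdh9 at 88.4 and 93.3. Cdh22, Cdh6 and Cdh24 had lower CPM in neurons, not corrected for gene length. They were at 43.8, 37.0 and 5.99 CPM aged and 47.6, 40.7 and 6.31 young. A pair of type II members was instead high in glia: Cdh20 at 933 and 973 CPM in oligodendrocytes, 785 and 835 in astrocytes and 723 and 752 in precursors, against 45.4 and 48.1 in neurons. Cdh19, a close relative known from Schwann cell and glial precursors, was measured at 403 and 540 CPM in oligodendrocytes, 448 and 481 in astrocytes, 188 and 182 in precursors, and 0.881 and 1.06 in neurons. Cdh10 was high on both sides, with 544 and 560 CPM in oligodendrocytes and 688 and 748 in astrocytes. Cdh5, the endothelial VE-cadherin, reached 246 CPM (135 to 413) in 21 aged and 312 CPM (178 to 506) in 23 young endothelial nuclei, on 14 and 16 UMIs, and 0.0859 and 0.126 CPM in neurons.

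Cdh13 was measured in neurons (268 CPM aged, 352 young) and precursors (578 and 610) and was low in oligodendrocytes (9.79 and 17.6). Cdh23 was a microglial transcript here, at 386 CPM aged and 467 young (347 to 427 and 425 to 513) against 6.10 and 5.86 in neurons and 0.734 and 1.35 in oligodendrocytes. Its hair cell partner Pcdh15 was not high in the same cells: it was measured at 3965.9 and 3914.0 CPM in precursors, 958 and 1020.8 in neurons, 301 and 214 in oligodendrocytes, and 32.9 and 86.4 in microglia. The kidney and intestinal cadherins Cdh16 and Cdh17, Cdh26, and the vascular protocadherin Pcdh12 gave between 2 and 7 UMIs in each whole library.

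Of the delta-1 protocadherins, Pcdh9 was the most abundant member in CPM in all 5 classes but microglia. It reached 11289.5 CPM aged and 12983.0 young in oligodendrocytes, 6592.4 and 6185.8 in precursors, 3538.6 and 2939.2 in astrocytes and 2634.1 and 2484.8 in neurons. Pcdh7 followed in precursors (1249.3 and 1353.3 CPM), astrocytes (1080.1 and 1006.8) and neurons (826 and 833), and was low in oligodendrocytes (60.2 and 106). Pcdh11x, on the X chromosome, was measured at 316 and 328 CPM in neurons and 885 and 835 in precursors, and Pcdh1 at 32.6 and 34.1 in neurons. Of the delta-2 group, Pcdh17 and Pcdh10 were present in neurons (275 and 263, 165 and 171 CPM), astrocytes (277 and 288, 221 and 197) and precursors (302 and 395, 231 and 229). Pcdh19, in which human mutations cause a female-limited epilepsy, was measured at 75.2 and 67.0 CPM in neurons, Pcdh8 at 24.8 and 23.1, Pcdh18 at 4.19 and 4.68, and Pcdh20 at 7.50 and 7.21.

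CPM does not allow for gene length, and long genes give more intronic molecules in nuclei where introns are counted. Whether introns were counted here is not stated, so the orders by CPM and per length are both descriptions only. Members are long. Among genes with 200 or more neuronal UMIs, the median GENCODE M21 span was 158 kb for 27 members and 25.8 kb for all genes. On the scale of CPM per kilobase, Pcdh9 was highest among members in oligodendrocytes (12.9 aged, 14.8 young) and in precursors (7.51 and 7.05). Cdh19 was highest in astrocytes (5.02 and 5.39), and Pcdh8, a short gene, in neurons (5.47 and 5.10). In microglia Cdh23 was highest in the young library (1.19) and stood at 0.979 in the aged, where Pcdh8 was at 1.87 on 8 UMIs.

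Neurons were divided into 25 types, of which 23 held 20 or more nuclei in each library. Types are called "X-like" where at least 3 markers were detected and at least 2 were among the leading genes, and otherwise by their 2 leading genes. GABAergic types had GABA genes summing to more than 3 times their vesicular glutamate transporter genes. In glutamatergic types the transporter genes were the higher. The glutamatergic Ebf2/Ebf3 and Samd3/Il31ra types also held GABA genes (134.6 against 299.6 CPM and 151.5 against 266.9 CPM). So did the paraventricular and supraoptic-like type (89.4 against 203.2 CPM) and, less, the thalamic-like type (66.7 against 342.3 CPM). Over these 23 types, 27 members with 200 or more neuronal UMIs were compared, and 18 of the 27 (66.7%) had the same highest type in both libraries, against 32.5% of 14559 genes. Their highest type held a median of 11% of the summed CPM of all types, against 7.92% for all genes and 4.35% for an even spread. All genes were not matched to the members in UMIs, and members ranged from 240 neuronal UMIs (Cdh15) to 255108 (Pcdh9). Counting error can thus differ between members and all genes, and its part in these differences was not tested. The order of types was close between libraries, with a median Spearman correlation of 0.91 over 23 types (range 0.32 to 0.95). The libraries share the clustering. The lowest values were those of Cdh15 (0.32, on 240 neuronal UMIs), Pcdh1 (0.33, on 3311) and Cdh23 (0.46, on 607).

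**Figure D2:**
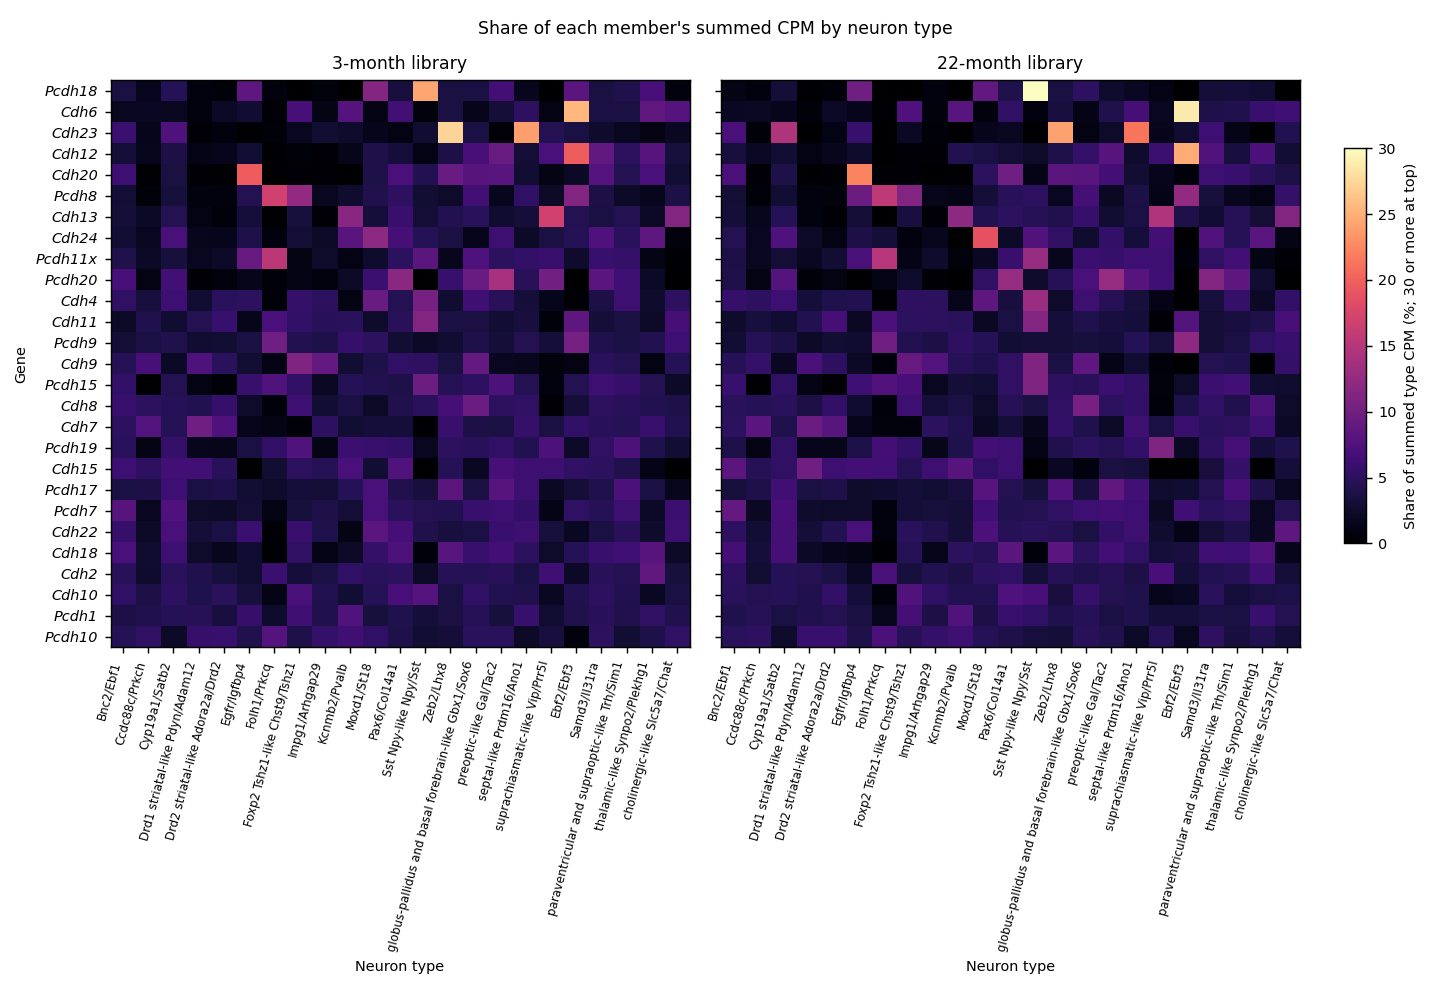
Share (%) of each member's summed CPM over 23 neuron types that falls in each type, for the 3-month and the 22-month library; rows are 27 members in the order of their highest share. Bright cells recur in the same place in both panels, as for Pcdh18 in the Sst Npy-like type, Cdh6 and Cdh12 in the Ebf2/Ebf3 type and Cdh20 in the Egfr/Igfbp4 type.

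The 8 members most concentrated in 1 type were highest in different types, apart from Cdh6 and Cdh12, which shared one. Pcdh18, a delta-2 protocadherin, was highest in Sst Npy-like neurons at 77.9 CPM aged and 36.2 young, against medians over types of 3.22 and 5.25, on 21 and 10 UMIs in that type. In glutamatergic neurons led by Ebf2 and Ebf3, Cdh6 was at 342 CPM aged and 343 young (medians 25.9 and 37.3), and Cdh12 at 1688.0 and 1022.5 (medians 200 and 168). Both type II cadherins were thus highest in the same type in both libraries. Cdh23 was highest in the Zeb2/Lhx8 type (intervals of 22.6 to 38.9 CPM aged and 28.1 to 45.9 young), with septal-like neurons next (26.7 and 31.7), and at 0 UMIs aged and 1 young in Drd1 striatal-like neurons. In the GABAergic Egfr/Igfbp4 type Cdh20 was at 249 and 218 CPM, against medians of 42.2 and 40.0, and it was listed at 0 in the Kcnmb2/Pvalb type in both libraries.

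Pcdh8, known as an activity-regulated protocadherin, was highest in the Folh1/Prkcq type (114 and 107 CPM), a GABAergic type in which Drd3 granule-type markers scored highest. The same type gave the lowest aged and young levels of Cdh12 (2.68 and 2.76 CPM), Cdh13 (5.37 and 9.65) and Cdh18 (28.6 and 31.0). Cdh13 was highest in suprachiasmatic-like neurons of the circadian nucleus (1231.4 CPM aged, 1813.8 young), followed in both libraries by the Kcnmb2/Pvalb type (1007.9 and 1249.8) and cholinergic-like neurons (953 and 1212.4). Cdh24 was highest in the Moxd1/St18 type, at 27.2 and 19.6 CPM.

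The 4 members spread most evenly over types were Pcdh10, Pcdh1, Cdh10 and Cdh2, whose highest type held 7.51%, 7.58%, 7.80% and 7.92% of their summed CPM. Pcdh10 was highest in the Folh1/Prkcq type at 264 and 294 CPM, which is 1.57 and 1.73 times the median over types. Cdh2 ranged from 142 CPM in the Egfr/Igfbp4 type to 487 in the Folh1/Prkcq type in the aged library, and from 143 in the Ebf2/Ebf3 type to 584 in thalamic-like neurons in the young. Cdh8 was highest in globus-pallidus and basal forebrain-like neurons (841 and 703 CPM), Cdh7 in Drd1 striatal-like neurons (204 and 180), Pcdh7 in the Bnc2/Ebf1 type (1598.7 and 1446.9), and Pcdh15 in Sst Npy-like neurons (2612.4 and 2446.3).

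Pairs of members were compared by the Pearson correlation of log2(CPM + 5) over the 23 types, taken in each library and averaged, as a description over types that share libraries and depth. The 351 pairs had a median of 0.10, and the 55 pairs of 2 type II cadherins had a median of 0.24. The 5 most alike pairs were Cdh4 with Cdh22 (0.799), Cdh8 with Cdh10 (0.736), Cdh4 with Cdh10 (0.726), Cdh12 with Cdh18 (0.697) and Cdh9 with Cdh10 (0.687). All 5 are pairs of classical cadherins. Of the 351 pairs, 120 are of 2 cadherins (median 0.15) and 55 of 2 protocadherins (median 0.08), and the rest are mixed. Cdh4 with Cdh22, Cdh12 with Cdh18 and Cdh9 with Cdh10 are also pairs on the same chromosome. So are 32 of all pairs, with a median of 0.09. The 5 least alike pairs each set a cadherin against a protocadherin: Cdh4 with Pcdh9 (-0.677), Cdh7 with Pcdh8 (-0.617), Cdh7 with Pcdh15 (-0.546), Cdh6 with Pcdh10 (-0.541) and Cdh12 with Pcdh10 (-0.534).

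For the comparison of ages a gene counted as past the fold at a CPM ratio of 1.3 or more in either direction, among genes with 100 or more UMIs in the class over both libraries. Every ratio that follows is one of levels in CPM, and members are set beside the share of all genes past the same fold. Those genes were not matched to the members in UMIs, so counting error can differ between them. The median gene's log2 ratio lay between 0.01 and 0.09 in the 5 classes, with the highest in oligodendrocytes.

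Cdh8 stood apart in oligodendrocytes, where its level in the aged library was 5.03 times that in the young. It was measured at 251 CPM (236 to 267) on 1025 UMIs in 1881 aged nuclei and at 49.8 CPM (43.5 to 56.8) on 221 UMIs in 2139 young nuclei, a ratio with an interval of 4.35 to 5.85. Of 8978 genes with 100 or more UMIs in oligodendrocytes, Cdh8 ranked 5 from the highest ratio. The UMIs were spread over 620 aged and 147 young nuclei, and no nucleus held more than 9 aged or 11 young UMIs.

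The same difference was present in both oligodendrocyte clusters. In the cluster led by Slc13a1, Opalin and Il33 it was 233 CPM in 1270 aged nuclei and 35.8 in 1037 young nuclei (6.51-fold, 5.10 to 8.42). In the cluster led by Anln and Hapln2 it was 280 CPM in 611 aged and 61.7 in 1102 young nuclei (4.53-fold, 3.75 to 5.50). With each nucleus thinned to 1000 UMIs, which left out 23 aged and 54 young nuclei, 19.9% of aged (18.1 to 21.7) and 3.98% of young (3.18 to 4.91) oligodendrocytes held a Cdh8 UMI, and 33.0% and 6.87% did unthinned. Microglia, at median depths of 2137.5 and 1806 UMIs against 2023 and 1893 in oligodendrocytes, held one in 1.47% of aged and 0.864% of young nuclei after thinning (2.67% and 2.73% unthinned). Shares in oligodendrocytes thus lay above the microglial ones at both ages, by more in the aged library.

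**Figure D3:**
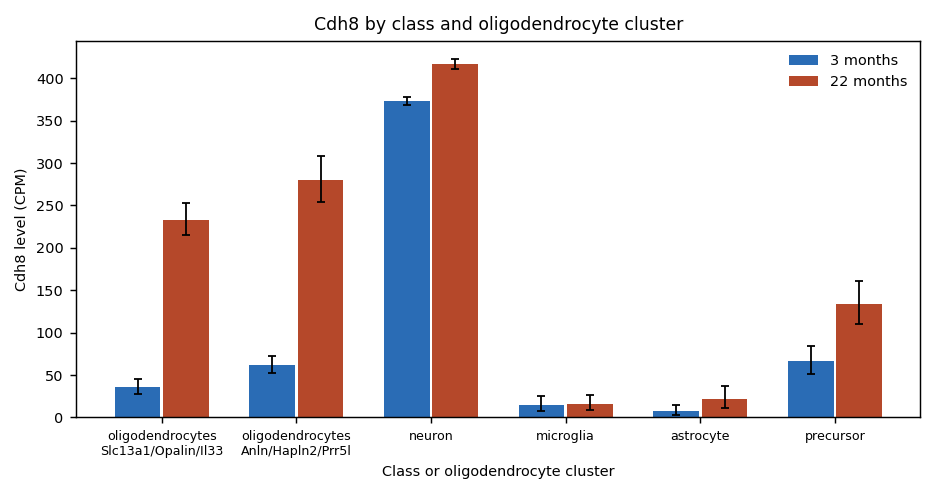
Cdh8 level (CPM) in the 2 oligodendrocyte clusters and 4 other classes; blue bars are the 3-month and red bars the 22-month library, and error bars are exact Poisson 95% intervals of counting. Both oligodendrocyte clusters go from 35.8 and 61.7 CPM to 233 and 280 CPM, and precursors from 66.2 to 134 CPM, while microglia lie at 14.9 and 15.9 CPM and astrocytes at 7.53 and 21.2 CPM.

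Cdh8 is also high in neurons, so measures of neuronal RNA are given beside it. The 5 neuron markers summed to 727 CPM in aged and 643 in young oligodendrocytes, and barcodes with 100 or fewer UMIs, which sample free RNA, held Cdh8 at 146 CPM aged and 176 young. Neuron-high Cdh18 gave 19.8 and 14.7 CPM and Cdh12 gave 4.65 and 4.06 CPM in the same oligodendrocytes. After subtraction of the free RNA profile, at an estimated 10.3% of aged and 6.16% of young oligodendrocyte UMIs, the Cdh8 ratio was 6.32. With marked doublets kept, the neuron markers in the class came to 4890.5 and 4876.6 CPM, Cdh8 to 313 and 124 CPM, and its ratio to 2.52. The part of neuronal RNA in the Cdh8 result was not tested. Of 5 annotated genes that overlap Cdh8, 2 are in the matrix, and they gave 11 aged and 11 young oligodendrocyte UMIs together.

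In all, 16 members had 100 or more UMIs in oligodendrocytes, with 3 past the fold higher in the aged library (18.8%, against 14.3% of all genes) and 3 past it lower (18.8%, against 5.57%). Their median log2 ratio was -0.05, against 0.09 for all genes. Beside Cdh8, Pcdh15 was higher, at 301 CPM aged and 214 young (1.41-fold, 1.29 to 1.53), and so was Cdh18, on 81 and 65 UMIs (1.35-fold, 0.964 to 1.90). The Cdh18 interval includes 1, and its level was 20.4 against 20.6 CPM in the Slc13a1/Opalin/Il33 cluster and 18.8 against 9.60 CPM in the Anln/Hapln2 cluster. Its ratio fell inside the fold with a median-ratio size factor (1.27) and with both clusters weighted alike (1.24). Free RNA held Cdh18 at 301 CPM aged and 383 young, against 19.8 and 14.7 CPM in oligodendrocytes. The part of free RNA in the Cdh18 ratio was not tested. Pcdh15 was higher in the Slc13a1/Opalin/Il33 cluster (367 and 234 CPM, 1.57-fold) and not in the Anln/Hapln2 cluster (193 and 197 CPM, 0.977-fold), a difference between clusters that was not tested. With doublets kept the Pcdh15 ratio was 1.00.

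On the lower side, Pcdh7 was at 60.2 CPM aged and 106 young (1.76-fold lower, 1.5 to 2.06), Cdh13 at 9.79 and 17.6 (1.80-fold lower, 1.21 to 2.70) and Cdh19 at 403 and 540 (1.34-fold lower, 1.26 to 1.43). The young nuclei were not even in Pcdh7: 1 held 46 of the 469 young UMIs, and the difference lay in the Slc13a1/Opalin/Il33 cluster (82.8 and 195 CPM, 0.425-fold) more than in the Anln/Hapln2 cluster (35 and 72 UMIs, 0.756-fold). In the first of these clusters 9630013A20Rik, an RNA known from newly formed oligodendrocytes, was at 7.46 CPM aged and 179 young. Without the 23 aged and 42 young nuclei that held a UMI of it, Pcdh7 was 1.39-fold lower (1.17 to 1.64), and Cdh8 kept a ratio of 4.98. With doublets kept, the ratio of Pcdh7 was 0.971 and that of Cdh13 was 0.914, both inside the fold. At no more than 1% mitochondrial UMIs the ratio of Pcdh7 was 0.323 and that of Cdh13 was 0.336. Free RNA, an estimated 10.3% of aged and 6.16% of young oligodendrocyte UMIs, held Cdh13 at 100 CPM aged and 158 young. Its part in the Cdh13 ratio was not tested. Cdh19 was lower in both clusters, at 351 against 399 CPM and at 490 against 660 CPM, of which the first (0.880) lies inside the fold. Its call ended with both clusters weighted alike (0.804) and with free RNA subtracted (0.780). The other 10 members lay within the fold, among them Pcdh9 at 0.870 of its young level (0.859 to 0.880), Cdh20 at 0.959, Cdh10 at 0.972 and Cdh2 at 1.07.

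Oligodendrocyte precursors showed the same direction for Cdh8. It was measured at 134 CPM (110 to 161) on 110 aged UMIs and 66.2 CPM (51.4 to 83.9) on 68 young UMIs, a ratio of 2.02 (1.48 to 2.78), which ranked 10 from the highest of 3661 genes. Both levels lay below those of Cdh8 in free RNA (146 and 176 CPM), which made up an estimated 25.7% of aged and 23.2% of young precursor UMIs, and the 5 neuron markers summed to 2565.6 and 2421.6 CPM in precursors. With the free RNA profile subtracted the Cdh8 ratio was 3.85, and the part of free RNA in this result was not tested. Cdh18 was also higher, at 476 against 307 CPM (1.55-fold, 1.33 to 1.80), while Pcdh17 was 1.31-fold lower (302 against 395 CPM, 1.11 to 1.54). Of 15 members with 100 or more UMIs, 2 were past the fold higher (13.3%, against 12.9% of all genes) and 1 lower (6.67%, against 11.2%), shares near or under the background. The other 12, with Pcdh9, Pcdh15, Pcdh7 and Pcdh11x at the highest CPM of them, lay within it. The young precursors held more of committed-precursor markers (2051.9 CPM, against 1276.1 aged), of 9630013A20Rik (373 and 41.4 CPM) and of mature oligodendrocyte markers (1302.7 and 482 CPM). That RNA overlaps Pcdh17 on the opposite strand, and whether counting used strand is not stated by the labels or headers. Without nuclei that held a UMI of it, the Pcdh17 ratio was 0.854 (inside the fold), that of Cdh8 was 1.78 and that of Cdh18 was 1.45. Pcdh17 was also inside the fold with doublets kept (0.808) and at no more than 1% mitochondrial UMIs (0.816). The ratio of Cdh18 was 1.2 with doublets kept, inside the fold, and 1.84 with free RNA subtracted.

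Few members could be compared in microglia and astrocytes. In microglia 3 members had 100 or more UMIs, with 0 past the fold higher (against 13.1% of all genes) and 1 lower (against 9.14%). Cdh23, the abundant one, was at 386 CPM aged and 467 young (1.21-fold lower, 1.05 to 1.40), inside the fold. Pcdh15 was the member past it, at 32.9 against 86.4 CPM (2.62-fold lower, 1.72 to 4.11), but 41 of its 81 young UMIs came from 1 nucleus, and without the top nucleus of each library its ratio was 0.573 on fewer than 100 UMIs. With doublets kept its ratio was 1.31 in the other direction. A Pcdh15 UMI was held by 19 aged and 14 young microglia, and free RNA held Pcdh15 at 337 and 539 CPM. Free RNA made up an estimated 11.6% of aged and 8.51% of young microglial UMIs, and its part in this ratio was not tested. In astrocytes 0 of 10 members were past the fold in either direction, against 12.4% of all genes higher and 9.52% lower. The nearest was Pcdh9, at 3538.6 against 2939.2 CPM (1.2-fold, 1.14 to 1.27). Neuron markers summed to 1484.3 CPM in the 156 aged and 442 in the 389 young astrocytes, and their part in this ratio was not tested.

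**Figure D4:**
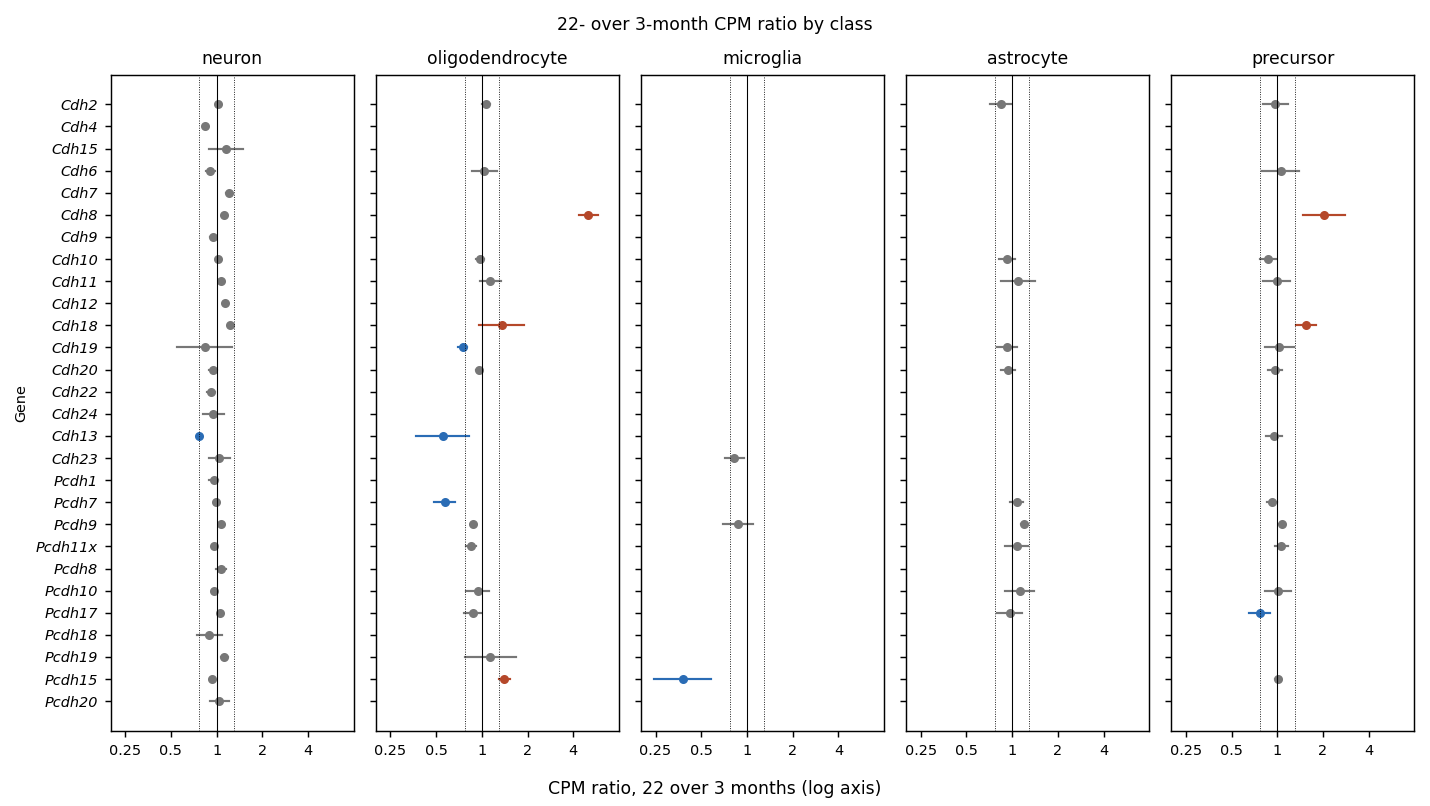
Ratio of CPM, 22 over 3 months, on a log axis for each member with 100 or more UMIs in the class; bars are exact 95% intervals of counting, dotted lines mark 1.3-fold, red points are past it higher and blue points past it lower. Cdh8 in oligodendrocytes (5.03) lies farthest to the right, and all neuronal points but Cdh13 lie between the dotted lines.

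In neurons the members barely differed as a group. Of 28 members with 100 or more UMIs, 0 were past the fold higher, against 6.35% of 16315 genes. Past it lower was 1 member (3.57%, against 10.1%). The median log2 ratio of the 28 was 0.01, against 0.02 for all genes. These members held from 100 UMIs (Cdh19) to 261204 (Pcdh9), and the shares of all genes were not matched for this. The member past the fold was Cdh13, at 268 CPM aged (264 to 273) and 352 young (347 to 357), which is 1.31-fold lower (1.28 to 1.34) on 12497 and 19618 UMIs. It lay close to the threshold, and was 1.27-fold lower with neuron types weighted alike in both libraries. Of the members with over 1000 UMIs, those just inside were Cdh18 (1.22-fold higher, 1.21 to 1.24), Cdh7 (1.2-fold higher, 1.15 to 1.25) and Cdh4 (1.2-fold lower, 1.17 to 1.23). With types weighted alike these were 1.2-fold higher, 1.17-fold higher and 1.2-fold lower. The abundant Pcdh9, Pcdh15 and Pcdh7 were at 1.06, 0.938 and 0.992 of the young level.

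Within neuron types, 385 pairs of a member and a type with 100 or more UMIs were compared, over 24 members and the 20 types with 50 or more nuclei in each library. Of these, 31 pairs (8.05%) were past the fold higher, against 8.75% of 136232 pairs of any gene, and 37 (9.61%) lower, against 9.11%. Both shares of the members lie near the background. The calls were unevenly spread over members: 10 of the 37 lower pairs were of Cdh13, 8 of Cdh4 and 5 of Pcdh15, and 7 of the 31 higher pairs were of Cdh18 and 6 of Cdh12.

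Cdh13 was past the fold lower in 10 of 19 types and higher in 0, with ratios from 0.476 to 1.09 and a median of 0.763. In Drd2 striatal-like neurons it was at 33.5 CPM aged and 70.3 young (2.10-fold lower, 1.73 to 2.56). In the glutamatergic Samd3/Il31ra type it was at 236 and 382 CPM (1.62-fold lower, 1.47 to 1.78), and in the Ccdc88c/Prkch type at 144 and 230 (1.60-fold lower, 1.41 to 1.81). In suprachiasmatic-like neurons, its highest type, Cdh13 was at 1231.4 and 1813.8 CPM (1.47-fold lower, 1.34 to 1.62). The lower level of Cdh13 was thus present in striatal, circadian and glutamatergic types alike, and 2 of the 19 types had a ratio above 1. Cdh4 was past the fold lower in 8 of 18 types and higher in 0, with a median ratio of 0.780 and 1 type above 1 (1.27, Ccdc88c/Prkch).

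Pcdh15 was lower in 5 of 20 types. It was at 559 and 1101.5 CPM in the Ebf2/Ebf3 type (1.97-fold lower, 1.64 to 2.37), 643 and 1120.1 in thalamic-like neurons (1.74-fold lower, 1.62 to 1.87), and 672 and 1080.7 in the Moxd1/St18 type (1.61-fold lower, 1.47 to 1.76). Its median ratio over types was 0.924 and 6 types were above 1.

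Cdh18 and Cdh12 went the other way. Cdh18 was past the fold higher in 7 of 19 types, with 17 of 19 ratios above 1 and a median of 1.16. It was at 641 and 389 CPM in suprachiasmatic-like neurons (1.65-fold higher, 1.40 to 1.94), 644 and 438 in the Ccdc88c/Prkch type (1.47-fold, 1.37 to 1.58) and 1666.2 and 1201.4 in the Pax6/Col14a1 type (1.39-fold, 1.29 to 1.49). Its exception was the Egfr/Igfbp4 type, at 249 and 448 CPM (1.80-fold lower, 1.48 to 2.20). Cdh12 was past the fold higher in 6 of 19 types, with 18 of 19 ratios above 1 and a median of 1.15. In the Ebf2/Ebf3 type, where it is highest, Cdh12 was at 1688.0 and 1022.5 CPM (1.65-fold, 1.44 to 1.89), and in the Ccdc88c/Prkch type at 141 and 89.1 (1.58-fold, 1.35 to 1.85).

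**Figure D5:**
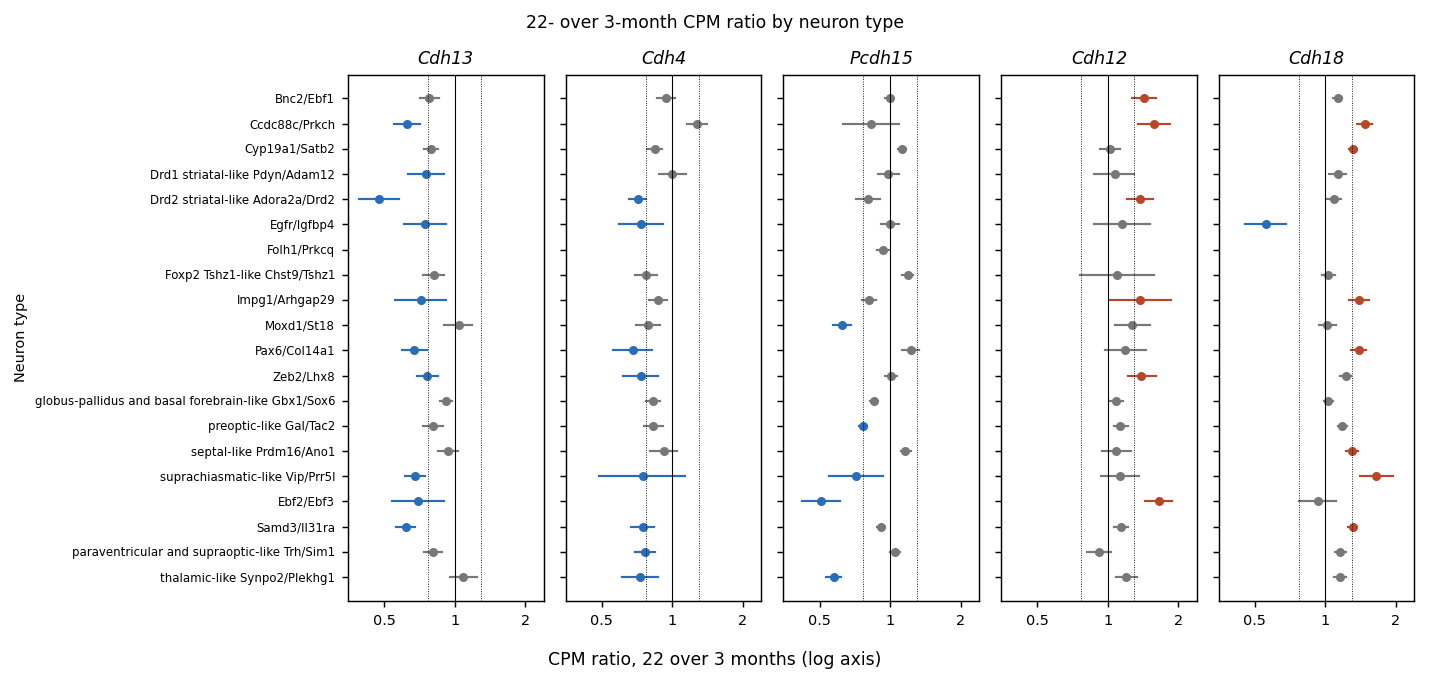
Ratio of CPM, 22 over 3 months, on a log axis in each of 20 neuron types for 5 members; bars are exact 95% intervals of counting, dotted lines mark 1.3-fold, and red and blue points are past it higher and lower. Points of Cdh13 and Cdh4 lie mostly left of 1 (medians 0.763 and 0.780), and points of Cdh12 and Cdh18 mostly right of it (medians 1.15 and 1.16).

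Single types differed in how many members were past the fold. In thalamic-like neurons 4 of 19 members were past the fold higher and 5 lower, where 10.6% and 14.6% of all genes were. Cdh8 was there at 594 CPM aged and 318 young (1.86-fold, 1.68 to 2.07), Cdh10 at 196 and 100 (1.96-fold, 1.63 to 2.37), Cdh11 at 158 and 90.6 (1.74-fold, 1.43 to 2.13), Pcdh9 at 3730.1 and 2726.4 (1.37-fold, 1.32 to 1.42), and Cdh6 at 70.2 and 117 (1.66-fold lower, 1.34 to 2.08). The type held 130 aged and 117 young nuclei. In the Ebf2/Ebf3 type, of 53 aged and 80 young nuclei, 3 of 12 members were past the fold in each direction (13.1% and 12.9% of all genes), with Cdh10 at 101 and 220 CPM (2.17-fold lower, 1.41 to 3.42) on 29 and 89 UMIs. In suprachiasmatic-like neurons 4 of 13 members were higher and 3 lower (11.3% and 11% of all genes). In globus-pallidus and basal forebrain-like neurons 0 of 23 members were past the fold, where 8.35% of all genes were higher and 7.88% lower. Pcdh9 was also higher in the Ccdc88c/Prkch type, at 3126.2 against 2370.3 CPM (1.32-fold, 1.28 to 1.36).

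The partners through which cadherins act were counted by the same rule and are set beside the share of all genes in each class. Of 9 catenins, which tie cadherins to actin, 1 was past the fold in neurons: Ctnna3, an alpha-catenin, at 630 CPM aged and 944 young (1.5-fold lower, 1.48 to 1.52). The list of large and other cadherins also holds Fjx1, which is not itself a cadherin. Of the 11 genes of this list measured in neurons, 1 was past the fold, Dchs1 (7.80 and 10.9 CPM, 1.40-fold lower). Of 9 WAVE complex genes and 6 genes of cadherin cleavage and linkage, 0 were. Of all neuronal genes, 6.35% were past the fold higher and 10.1% lower. The partner ratios in neurons are over all neurons together, and the part of neuron type shares in them was not tested. In oligodendrocytes 1 of 9 catenins (Arvcf, 1.31-fold higher), 1 of 5 large and other cadherins (Clstn3, 1.51-fold higher), 0 of 9 WAVE complex genes and 0 of 5 genes of cleavage and linkage were past the fold, against 14.3% of all genes higher and 5.57% lower. Arvcf rested on 83 aged and 69 young UMIs, with an interval of 0.937 to 1.82. In precursors Pkp4, an armadillo protein of the catenin list, was 2.11-fold lower in the aged library (81.6 and 172 CPM), Cyfip2 of the WAVE complex was 1.42-fold lower and the calsyntenin Clstn2 was 1.47-fold lower, which makes 1 of 7, 1 of 7 and 1 of 3 measured genes of their lists, against 11.2% of all genes lower. Clstn2 rested on 37 aged and 68 young UMIs, with an interval of 0.970 to 2.25 that includes 1, and 0 of 3 genes of cleavage and linkage were past the fold. Pkp4 was higher in oligodendrocytes (487 and 446 CPM) than in precursors, and Cyfip2 (46.7 and 45.5) and Clstn2 (11.7 and 4.73) were lower there. The young precursors held more mature oligodendrocyte markers and 9630013A20Rik, as given above. The part of this in the ratios of Pkp4, Cyfip2 and Clstn2 was not tested. In microglia 2 of 6 catenins, Ctnna2 (65.9 and 119 CPM) and Ctnnd2 (71.2 and 124 CPM), were past the fold lower, against 9.14% of all genes. Both were far higher in neurons, at 1976.6 and 1928.0 CPM and at 1203.7 and 1182.7 CPM. Neuron markers summed to 818 CPM in aged and 889 in young microglia, and the part of neuronal RNA in these 2 ratios was not tested. Of 4 microglial genes of cleavage and linkage 2 were past it higher, against 13.1% of all genes: Afdn, the afadin that links nectins to actin (89.2 and 35.2 CPM, 2.53-fold), and Adam17, a membrane protease (1.36-fold). The 2 large and other cadherins and the 5 WAVE complex genes measured there were inside the fold. In astrocytes, where 12.4% of all genes were past the fold higher and 9.52% lower, 3 of 5 catenins were past it, with Ctnna1 (1.49-fold) and Ctnna3 (1.88-fold) higher and Ctnna2 lower (1.68-fold). Of 3 genes of the large and other cadherin list in astrocytes, Fjx1, not a cadherin, was 1.44-fold higher, and Fat3 and Clstn1 were inside the fold. Of 7 WAVE complex genes Abi2 was 1.55-fold higher and Wasf3 1.39-fold lower, and 0 of 3 genes of cleavage and linkage were past the fold. Neuron markers differed between the astrocytes of the 2 libraries, as given above, and their part in these ratios was not tested.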

How the data were processed

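Single nuclei of 2 libraries were profiled with 10x droplets after an iodixanol gradient, removal of myelin with beads and sorting on DAPI, per the labels' protocols. The deposited matrices hold UMI counts per gene and barcode, unfiltered and not normalized, per the file headers and values; the submitters' processing notes name Cell Ranger 4. Sources used here do not give the genome build, the counting of introns or the use of strand. Members and gene lists were chosen with earlier results of these data known.

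Barcodes with 500 or more genes and at most 5% mitochondrial UMIs were kept, Scrublet doublets were removed per library, and both libraries were clustered together with Leiden at resolution 1 (scanpy 1.11.5, 2000 variable genes without members, 30 principal components, 15 neighbours), neurons then alone by the same settings. Classes were named from marker lists. UMIs were summed per library and class or type and divided by the class total (CPM), with exact Poisson intervals for levels and exact conditional binomial intervals for ratios. Intervals of shares of nuclei are exact Clopper-Pearson intervals. Summed UMIs per library ranged from 566609 (aged astrocytes) to 55768750 (young neurons) over the 5 classes compared. Gene lengths are GENCODE M21 gene spans.

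Members were named with values if they were among the 8 most or 4 least concentrated over neuron types, past 1.3-fold in a class, among the 10 type pairs in each direction whose interval bound lay farthest from 1, or in the 5 most and 5 least alike pairs; others are given by role. Alternatives were other scalings, UMI limits, folds, filters, doublets kept, free RNA subtracted, the top nucleus left out, types weighted alike and other clusterings. Oligodendrocyte clusters weighted alike, and nuclei with a UMI of 9630013A20Rik left out, were chosen after seeing the data.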

Additional observations from a re-analysis of the deposited data

Results flagged for a closer look

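Pcdh15 differed in opposite directions in 2 glial classes with doublets left out. Its ratio of aged to young CPM was 1.41 in oligodendrocytes and 0.381 in microglia. The difference between the classes was not tested, since there is 1 library per age. The microglial value rests on 31 aged and 81 young UMIs, of which 41 came from 1 young nucleus. The share of microglia with a Pcdh15 UMI went the other way, at 4.61% aged and 2.94% young. Thinned to 1000 UMIs it was 2.7% (1.35 to 4.77) and 1.51% (0.61 to 3.09). Free RNA held Pcdh15 at 337 CPM aged and 539 young, above both microglial levels, and its part was not tested. In oligodendrocytes the difference lay in the Slc13a1/Opalin/Il33 cluster (1.57) and not in the Anln/Hapln2 cluster (0.977). With doublets kept the ratios were 1.00 in oligodendrocytes and 1.31 in microglia (on fewer than 100 UMIs), so the opposite directions did not hold there.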

How the results depend on the processing

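No paired analysis was possible because there was 1 library per age, and for the same reason no replicate could be left out. The 1 member lower in aged neurons became 0 at a fold of 1.5, with doublets kept, with free RNA subtracted and with neuron types weighted alike (Cdh13 at 0.785). In oligodendrocytes 6 members past the fold became 3 at a fold of 1.5 and 3 with free RNA subtracted. In precursors 3 became 6 at 50 or more UMIs. In astrocytes 0 became 1 at 50 or more UMIs, 4 with doublets kept and 1 with free RNA subtracted. In microglia 1 became 4 at 50 or more UMIs, and 0 at 200 or more UMIs, with doublets kept, at most 1% mitochondrial UMIs, without the nucleus with most UMIs of the gene, or with free RNA subtracted. Pcdh15 kept a ratio of 0.372 at 1% mitochondrial UMIs and 0.573 without the top nuclei, with fewer than 100 UMIs in both. The ratio of Pcdh15 in microglia turned from 0.381 to 1.31 with doublets kept, also on fewer than 100 UMIs. The cause was not tested for any of these, apart from the UMI limits and folds, which change by construction which genes count. Cdh8 in oligodendrocytes stayed above the fold in all alternatives run, from 2.52 with doublets kept to 6.32 with free RNA subtracted, and in precursors it was 3.85 with free RNA subtracted. Pcdh7 in oligodendrocytes ranged from 0.323 at 1% mitochondrial UMIs to 0.971 with doublets kept. Depth limits which members can be compared: 3 in microglia, where members are a small share of UMIs, and 10 in astrocytes had 100 or more UMIs. The 18 members with the same highest neuron type became 22 at resolution 0.5, 20 at resolution 2 and 19 with doublets kept.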
